A study of Homo sapiens with 6 samples.

Results

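Antisense noncoding genes whose symbols end in -AS1 were followed in JJN3, a human multiple myeloma cell line, treated with WNK463, a compound that blocks the kinase activity of the WNK family. They were chosen by name and by level: every such symbol in the deposited fragment counts with a mean of at least 2 CPM (each count scaled to the library's total after TMM adjustment) over 6 RNA-seq libraries, which gave 167 of 1647 genes of that name among 60728 genes in the table. The cells were labelled wild type (WT). The libraries formed 3 groups of 2, a control group that received only the solvent DMSO and groups that received the compound for 2 h or 6 h. The labels give the DMSO cells no collection time, and time in culture and treatment cannot be told apart. The sample protocol gives a dose of 5 µM, while the design text of the series gives 1 µM. Nothing in the labels ties the 2 libraries of a group to different cultures, and the p-values cover no more than the spread among the libraries themselves, which may be technical.

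An antisense gene is read from the strand opposite to a neighbouring gene, here called its sense partner, after which it is named. Some antisense genes start head to head with the partner and share a promoter region with it, others run across the partner's exons or lie inside its introns. A few of these RNAs are known to act on the partner's transcription or RNA, others act elsewhere in the cell, and for most no function is known.

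Between 18013790 and 24002291 fragments per library were assigned to genes. At these depths 2 CPM corresponded to between 36.2 and 46.9 fragments and a count of 3 to between 0.128 and 0.166 CPM. All 11 plasma cell and myeloma markers were at 1 CPM or more, with a summed level of 2670 to 3041 CPM. Of 4 B cell markers PAX5 alone reached 1 CPM, of 6 T and NK cell markers CD247 alone, and CD22, CD3D and CD3G had no count. The T and NK cell markers summed to 87.54 to 108.5 CPM in DMSO, 89.59 to 90.86 at 2 h and 86.28 to 97.6 at 6 h. No stromal or erythroid marker reached 1 CPM, while of 6 myeloid markers CSF1R and S100A8 did. Among 6 epithelial markers EPCAM, CDH1, KRT18 and CLDN4 did, with a summed level of 103.5 to 103.6 CPM in DMSO, 134.5 to 137.5 at 2 h and 124.2 to 132.0 at 6 h. The part of other cells in the results was not tested.

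The AS1 genes were mostly weakly expressed. Of the 1647, 615 had no count in any library, 445 passed the filter on low counts and 167 reached the 2 CPM minimum. The last 3 inside it were GP6-AS1 (2.00 CPM), SNAI3-AS1 (2.03 CPM) and BHLHE40-AS1 (2.05 CPM), and the first 3 outside were ZNF566-AS1 (1.98 CPM), ZBED5-AS1 (1.95 CPM) and HMGN3-AS1 (1.92 CPM). All 167 members were tested. Their median level was 4.68 CPM, against 18.0 CPM over all 15548 genes tested. A level of 10 CPM was reached by 41 members and 50 CPM by 6, while 67 lay under 4 CPM.

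Matching by symbol gave 165 members a partner, of which 156 passed the filter. The exon coordinates in the table gave the position of each pair. TRG-AS1 and TRD-AS1, named for T cell receptor loci, had no partner gene. The member shared at least 1 exonic base with its partner in 131 pairs, overlapped it without shared exonic bases in 22, lay beside it as a divergent neighbour in 10 and stood in another arrangement in 2. In 72 pairs both genes started within 2 kb of each other. Fragments were counted without regard to strand and a fragment over more than 1 gene was left out, so shared exonic bases mostly counted for neither gene. The share of a member's exonic length that it held in common with any other gene had a median of 8.96%, was 25% or more in 35 members and reached 68.8% in TIRAP-AS1, while 19 members shared none. A second overlap matters for such counts, because unspliced sense RNA from an intron that covers an antisense exon is counted for the antisense gene. The median member had 42.9% of its exonic length inside the span of another gene, 30 members had all of it there and 7 had none. How much intronic sense RNA contributed to any member was not tested. Per kb of exonic length, the partner had the higher mean CPM in 115 of 156 pairs.

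The most abundant member was FGD5-AS1 on chromosome 3 (hg38, 14920347 to 14948424), with 263 and 287 CPM in DMSO, 305 and 298 at 2 h and 373 and 368 at 6 h. It was followed by AFAP1-AS1, an RNA described in several carcinomas, with 209 and 211 CPM in DMSO, 168 and 166 at 2 h and 145 and 133 at 6 h. OIP5-AS1, the conserved noncoding RNA also called Cyrano, had 133 and 132 CPM in DMSO, 132 and 131 at 2 h and 165 and 156 at 6 h. In these genes the 6 h libraries lay outside the range of the DMSO libraries, above it for FGD5-AS1 and OIP5-AS1 and below it for AFAP1-AS1. The log2 changes at 6 h were 0.43 ± 0.0613 (SE, adjusted p = 1.77e-07), -0.60 ± 0.0693 (adjusted p = 1.39e-09) and 0.28 ± 0.0714 (adjusted p = 0.00169) in FGD5-AS1, AFAP1-AS1 and OIP5-AS1. At 2 h AFAP1-AS1 was already lower (log2 change -0.33 ± 0.0687, adjusted p = 0.000358), while FGD5-AS1 (0.13 ± 0.0614, adjusted p = 0.143) and OIP5-AS1 (-0.01 ± 0.0717, adjusted p = 0.966) were not called. Without the first 6 h library OIP5-AS1 was no longer called at 6 h (0.24).

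The next most abundant members were NNT-AS1, VPS9D1-AS1 and TRG-AS1. NNT-AS1, beside the gene of the mitochondrial transhydrogenase, had 77.7 and 81.9 CPM in DMSO, 102 and 95.6 at 2 h and 90.1 and 93.3 at 6 h, higher at 2 h (log2 change 0.30 ± 0.0819, adjusted p = 0.00641) and not called at 6 h (0.20 ± 0.0822, adjusted p = 0.0513). TRG-AS1 on chromosome 7 (38341577 to 38378804), in the T cell receptor gamma locus, had 59.7 and 64.1 CPM in DMSO, 48.3 and 51.9 at 2 h and 79.2 and 77.2 at 6 h. Its 2 h libraries lay below and its 6 h libraries above both DMSO libraries. It was lower at 2 h (-0.30 ± 0.0927, adjusted p = 0.0168), higher at 6 h than in DMSO (0.34 ± 0.0912, adjusted p = 0.00278) and higher at 6 h than at 2 h (0.64 ± 0.0920, adjusted p = 4.51e-07). Only 0.0539% of its exonic length was shared with another gene or lay inside one. With the first 2 h library left out, the 2 h calls of NNT-AS1 (0.26) and TRG-AS1 (-0.25) were lost, and that of TRG-AS1 also without the second DMSO (-0.24) or the second 2 h library (-0.36).

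Early differences were sought between the 2 h and DMSO libraries. Of the 167 members 8 were higher and 20 lower, and 139 were not called. Called members made up 16.8%, against 17.0% of all genes tested (edgeR quasi-likelihood test, adjusted p under 0.05). The share called higher was 4.79%, against 8.68% of all genes, and the share called lower 12.0%, against 8.32%. The median log2 change was -0.163 over the members and -0.00488 over all genes. Without the second 2 h library 4 members were higher and 9 lower, and DESeq2 called 13 lower. Of the 28 calls, 1 rise and 5 falls held in each of 14 refits, which changed the scaling, the filter, the test or the libraries used and kept the threshold.

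The deepest fall at 2 h was that of MCM3AP-AS1 on chromosome 21 (46229196 to 46259390), which crosses the gene of a nuclear protein of germinal centre B cells. It had 16.5 and 18.7 CPM in DMSO, 6.72 and 5.16 at 2 h and 5.81 and 6.25 at 6 h. All 4 treated libraries lay far below both DMSO libraries, and the 2 h and 6 h libraries overlapped. The log2 change was -1.58 ± 0.193 at 2 h (adjusted p = 2.06e-08) and -1.55 ± 0.194 at 6 h (adjusted p = 8.71e-09). Its partner MCM3AP had 105 and 103 CPM in DMSO, 92.5 and 101 at 2 h and 85.7 and 88.9 at 6 h, and the ratio of MCM3AP-AS1 to MCM3AP was lower at both times (log2 change of the ratio -1.46 ± 0.229, adjusted p = 2.57e-05, and -1.27 ± 0.229, adjusted p = 3.8e-05, limma). MCM3AP-AS1 shared 17.5% of its exonic length with MCM3AP and had 82.1% inside the span of another gene.

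SLC16A1-AS1 on chromosome 1 (112956415 to 113047055) starts beside the gene of the lactate transporter MCT1. It had 20.2 and 19.3 CPM in DMSO, 10.8 and 12.0 at 2 h and 7.67 and 7.21 at 6 h, so the 3 groups did not overlap. It fell by 0.79 ± 0.163 on the log2 scale at 2 h (adjusted p = 0.000317) and by 1.41 ± 0.170 at 6 h (adjusted p = 3.48e-09). Its partner SLC16A1 had 510 and 562 CPM in DMSO, 559 and 565 at 2 h and 402 and 392 at 6 h, not called at 2 h (log2 change 0.07) and lower at 6 h (-0.43 ± 0.0573, adjusted p = 2.89e-08). The ratio of SLC16A1-AS1 to SLC16A1 was lower at 2 h (log2 change of the ratio -0.86 ± 0.196, adjusted p = 0.00325) and at 6 h (-0.97 ± 0.196, adjusted p = 0.000213).

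Other falls at 2 h were smaller or less stable. SLC25A25-AS1 went from 9.62 and 10.7 CPM in DMSO to 6.17 and 4.39 at 2 h (log2 change -0.96 ± 0.224, adjusted p = 0.00156), and STX18-AS1 from 8.46 and 9.20 to 4.26 and 5.54 CPM (-0.84 ± 0.231, adjusted p = 0.00748). Their partners, a mitochondrial ATP-Mg carrier gene and a syntaxin gene, were not called at 2 h (log2 change -0.13 and 0.22). PXN-AS1 (-1.09), USP2-AS1 (-0.94), IFNG-AS1 (-0.92) and PCGF3-AS1 (-0.92) were also lower. With 1 library left out the call was lost in SLC25A25-AS1 (-0.72 without the second 2 h library), STX18-AS1 (-0.67 without the first 2 h library), PXN-AS1 (-0.94 without the second DMSO, -1.12 and -1.06 without the first and second 2 h), USP2-AS1 (-0.86 to -1.03 without any DMSO or 2 h library), IFNG-AS1 (-0.86 without the first DMSO, -0.66 without the first 2 h) and PCGF3-AS1 (-0.87 and -0.97 without the first and second DMSO, -0.56 without the second 2 h). DESeq2 did not call IFNG-AS1 (-0.92) or PCGF3-AS1 (-0.92) either.

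Rises at 2 h included those of CBLL1-AS1 (log2 change 1.50), RASSF8-AS1 (0.95), DHRS4-AS1 (0.79), LIPT2-AS1 (0.78), RHPN1-AS1 (0.77), IQCH-AS1 (0.69) and NNT-AS1 (0.30). RHPN1-AS1, a divergent neighbour of RHPN1, had 9.02 and 6.84 CPM in DMSO, 14.6 and 12.4 at 2 h and 10.8 and 10.3 at 6 h (2 h change 0.77 ± 0.187, adjusted p = 0.00246). Its 2 h libraries lay above all others. RHPN1 went the other way, with 68.4 and 60.7 CPM in DMSO, 46.3 and 44.6 at 2 h and 58.0 and 65.4 at 6 h (2 h change -0.51 ± 0.0979, adjusted p = 0.000137). The ratio of RHPN1-AS1 to RHPN1 was higher at 2 h by 1.27 ± 0.209 on the log2 scale (adjusted p = 5.03e-05), and no exonic base of RHPN1-AS1 lay inside another gene. DHRS4-AS1 had 6.64 and 5.66 CPM in DMSO and 9.88 and 11.3 at 2 h (0.79 ± 0.200, adjusted p = 0.00375). The call was lost without the second 2 h library in CBLL1-AS1 (1.29) and DHRS4-AS1 (0.69), without the first in LIPT2-AS1 (0.53) and IQCH-AS1 (0.64), and without the first DMSO library in LIPT2-AS1 (0.54). RASSF8-AS1 lost it without either DMSO library (0.88 and 1.03) or the second 2 h library (0.60) and with DESeq2 (0.95) or limma voom (0.94), and NNT-AS1 as given above.

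**Figure D1:**
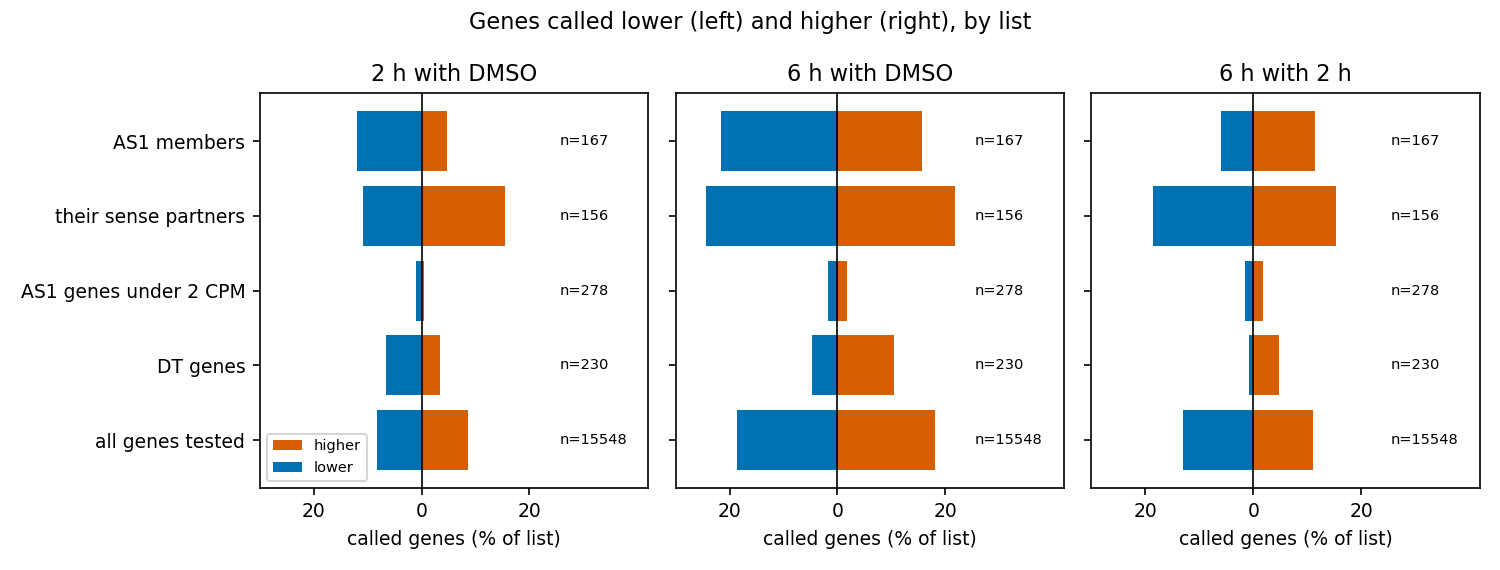
Share of each gene list called lower (bars to the left) and higher (bars to the right), in percent of the genes tested, for 3 comparisons. For the AS1 members the lower share was 12.0% and the higher 4.79% at 2 h, and 21.6% and 15.6% at 6 h, beside 18.6% and 18.0% of all genes at 6 h.

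At 6 h more members differed from DMSO. Of the 167 members 26 were higher, 36 lower and 105 not called, 37.1% in all against 36.6% of all genes tested. The higher share was 15.6% against 18.0%, and the lower share 21.6% against 18.6%. The median log2 change was -0.0615, beside -0.00498 over all genes. Without the first 6 h library 14 were higher and 22 lower, and DESeq2 called 17 higher. Of the 62 calls, 9 rises and 11 falls held in each of the 14 refits. The 2 times share the DMSO libraries, so their values are given side by side.

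IFNG-AS1 on chromosome 12 (67989445 to 68234686), a noncoding RNA of the interferon gamma locus known from T cells, fell most. It had 7.19 and 6.56 CPM in DMSO, 2.84 and 4.35 at 2 h and 1.44 and 0.965 at 6 h, and the 3 groups did not overlap. The 6 h change was -2.51 ± 0.334 (adjusted p = 3.53e-08). IFNG itself was too low to test, at 0.244 ± 0.189 CPM in DMSO and 0.154 ± 0.0737 CPM at 6 h (SD, n = 2), near the level of 3 counts. No exonic base of IFNG-AS1 was shared with IFNG, and 24.0% of its exonic length was shared with the pseudogene HNRNPA1P70.

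VPS9D1-AS1 on chromosome 16 (89711856 to 89718165), also called MYU, was the most abundant member with a large fall. It had 83.6 and 79.1 CPM in DMSO, 74.3 and 77.9 at 2 h and 33.1 and 33.3 at 6 h, so the 6 h libraries stood far below the others. The change was -0.09 ± 0.0893 at 2 h (adjusted p = 0.532) and -1.29 ± 0.0943 at 6 h (adjusted p = 2.01e-15). Its partner VPS9D1 had 27.8 and 25.6 CPM in DMSO, 23.2 and 20.3 at 2 h and 12.5 and 12.8 at 6 h, and also fell at 6 h (-1.08 ± 0.141, adjusted p = 2.64e-08). All exonic bases of VPS9D1-AS1 lay inside another gene and 29.5% of its exonic length was shared with VPS9D1, and its level per kb was 36.3 CPM against 6.10 CPM for VPS9D1.

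FAM222A-AS1 on chromosome 12 (109734166 to 109773508) had 7.97 and 5.85 CPM in DMSO, 5.95 and 5.67 at 2 h and 1.65 and 2.24 at 6 h (6 h change -1.82 ± 0.288, adjusted p = 1.28e-06). The fall lay between 2 h and 6 h, and only the 6 h libraries stood apart. FAM222A, with which it shared no exonic base, was not called (0.58 ± 0.265, adjusted p = 0.0809). The ratio of FAM222A-AS1 to FAM222A was lower at 6 h by the log2 change of the ratio of -2.40 ± 0.300 (adjusted p = 4.42e-08). The other large falls at 6 h were those of SLCO5A1-AS1 (-1.90 ± 0.390, adjusted p = 0.000102), BCAR3-AS1 (-1.60), MCM3AP-AS1 (-1.55), USP2-AS1 (-1.48 ± 0.309, adjusted p = 0.000138) and SLC16A1-AS1 (-1.41). SLCO5A1-AS1 went from 4.43 and 4.58 CPM in DMSO to 1.86 and 2.73 at 2 h and 0.926 and 1.47 at 6 h, and USP2-AS1 from 5.97 and 5.85 to 2.89 and 3.24 and to 1.90 and 2.34 CPM. BCAR3-AS1 was no longer called without the first 6 h library (-1.07), and its values are given with BCAR3.

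LIPT2-AS1 on chromosome 11 (74493366 to 74498533) rose most at 6 h. It had 3.98 and 5.85 CPM in DMSO, 9.99 and 7.12 at 2 h and 14.5 and 16.0 at 6 h, which is 3.08-fold above DMSO (log2 change 1.62 ± 0.209, adjusted p = 1.85e-08). LIPT2, whose product makes the lipoyl cofactor of mitochondrial enzymes, rose with it from 2.77 and 2.41 CPM to 7.10 and 5.33 at 2 h and 7.10 and 7.37 at 6 h (log2 change at 6 h 1.49 ± 0.266, adjusted p = 1.28e-05). In both genes every treated library was above both DMSO libraries. Of the exonic length of LIPT2-AS1, 14.4% was shared with LIPT2, and 94.9% lay inside the spans of other genes, LIPT2 among them. LIPT2 ends at 74493724 and so covers only the first stretch of LIPT2-AS1. The separate level of each is uncertain, and the part of other genes in the rise of LIPT2-AS1 was not tested.

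SLC9A3-AS1, within the gene of a sodium-proton exchanger, had 11.6 and 9.20 CPM in DMSO, 12.6 and 9.17 at 2 h and 22.3 and 25.4 at 6 h (6 h change 1.20 ± 0.167, adjusted p = 9.74e-08). Its 2 h libraries overlapped DMSO and its 6 h libraries stood above both groups. SLC9A3 was at 1.77 ± 0.630 CPM in DMSO and 2.35 ± 0.238 at 6 h (SD, n = 2) and was not called. IQCH-AS1 had 5.70 and 5.80 CPM in DMSO, 9.67 and 8.95 at 2 h and 14.4 and 12.3 at 6 h (1.22 ± 0.196, adjusted p = 1.86e-06), with no overlap between the groups. IQCH itself stayed between 2.43 and 3.92 CPM in all libraries and was not called.

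Other large rises at 6 h were those of CBLL1-AS1 (1.57), RNF213-AS1 (1.27), BHLHE40-AS1 (1.14) and CARD8-AS1 (1.12), all under 4 CPM in DMSO. CBLL1-AS1 lost its call without the first 6 h library (1.30), RNF213-AS1 without the second DMSO (1.10) or second 6 h library (0.94), BHLHE40-AS1 without the first DMSO (0.85) or either 6 h library (1.29 and 0.96) and CARD8-AS1 without the second DMSO (0.80) or second 6 h library (0.89). BHLHE40-AS1 was not called by DESeq2 (1.15) or limma voom (1.14) either.

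**Figure D2:**
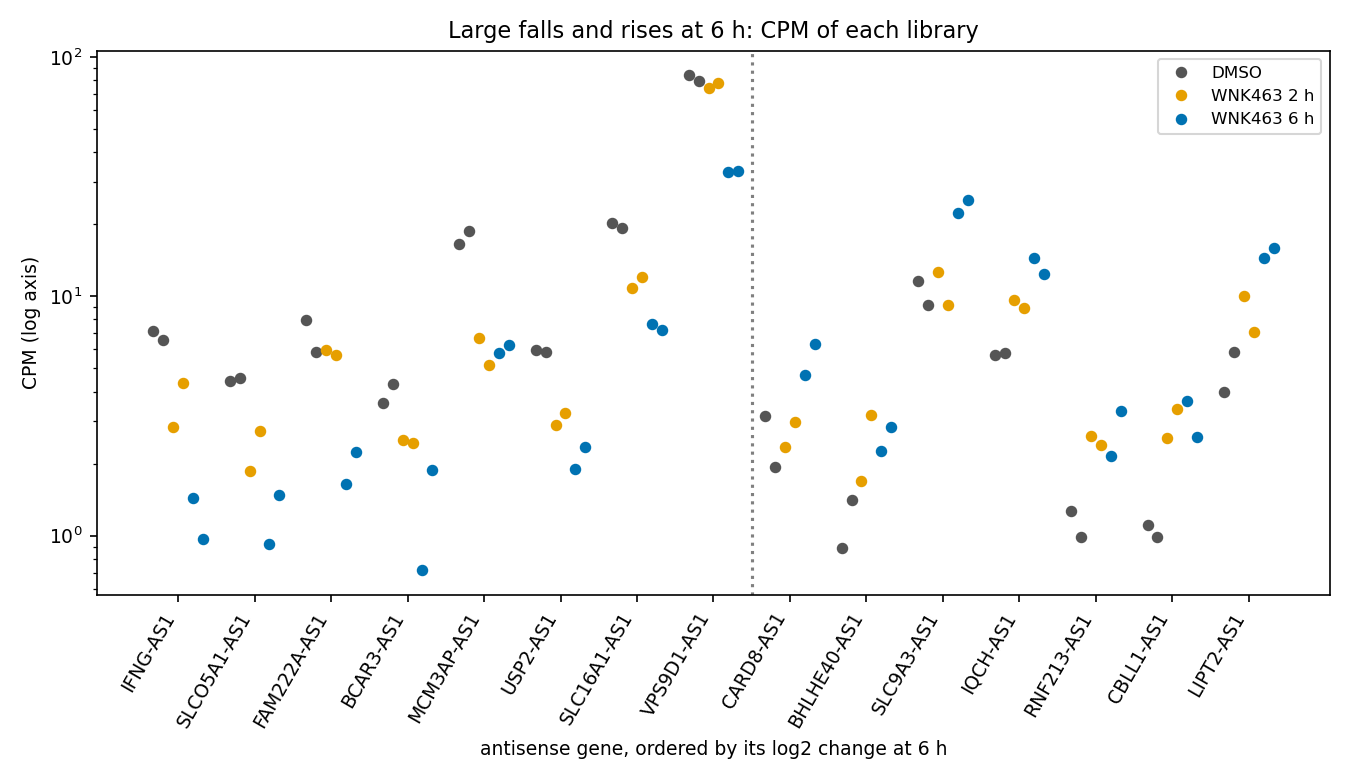
CPM of each library, on a log axis, for the 8 members with the largest falls (left of the dotted line) and 7 with large rises at 6 h. Points are libraries, coloured by group, and for every gene both 6 h points lie on one side of both DMSO points, as the rule for choosing these genes required.

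Between 2 h and 6 h, 19 members were higher at 6 h, 10 lower and 138 not called. The called share was 17.4%, against 24.3% of all genes tested. The higher share was 11.4% against 11.1%, and the lower share 5.99% against 13.1%. Without the second 2 h library 10 were higher, without the first 6 h library 11 and without the second 12. Without the first 2 h library 6 were lower. VPS9D1-AS1 (-1.20 ± 0.0943, adjusted p = 9.53e-14), FAM222A-AS1 (-1.58 ± 0.289, adjusted p = 3.54e-05) and IFNG-AS1 (-1.59 ± 0.343, adjusted p = 0.000371) were lower, and SLC9A3-AS1 (1.14 ± 0.165, adjusted p = 5.61e-07) was higher. SCAMP1-AS1, a divergent neighbour of the gene of a vesicle membrane protein, had 2.89 and 2.69 CPM at 2 h and 5.66 and 5.79 at 6 h (1.04 ± 0.304, adjusted p = 0.00846). Its DMSO libraries, at 4.15 and 2.36 CPM, lay between these groups or below the 2 h libraries. These 5 calls held with each library left out.

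Each member was then set beside its partner. Of 156 pairs at 2 h, both genes were called in 5: in 4 both were higher, and in 1, RHPN1-AS1 with RHPN1, the directions were opposite. Among the 4277 other pairs of opposite-strand neighbours both were called in 116 at 2 h. In 26 of these both were higher, in 60 both were lower and in 30 the directions were opposite. Opposite directions were thus 25.9% of the 116, against 20.0% of the 5. At 6 h both were called in 33 of 156 pairs. In 10 of these both were higher, in 10 both were lower and in 13 they went opposite ways, 8 with the antisense gene higher and 5 with it lower. Opposite directions thus made up 39.4% of the 33, and also 39.4% of 508 such pairs among the 4277 other pairs of opposite-strand neighbours in the table (200 pairs). Across the 156 pairs the log2 changes of antisense gene and partner had a Pearson correlation of 0.205 at 2 h and 0.199 at 6 h, beside 0.109 and 0.136 over the other 4277 pairs. By rank (Spearman) it was 0.149 at 2 h and 0.142 at 6 h, beside 0.111 and 0.155, so at 6 h it was not above that of the other pairs. These are descriptions over genes that share the same 6 libraries.

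Whether a member and its partner changed by different amounts was tested on their ratio in each library. At 2 h the ratio differed in 21 of 156 pairs (13.5%), 5 with the antisense gene gaining and 16 with it losing, against 8.16% of all 4684 opposite-strand pairs tested (limma, adjusted p under 0.05). With 1 library of DMSO or 2 h left out, 11 (first DMSO), 10 (second DMSO), 12 (first 2 h) and 13 pairs (second 2 h) remained past the threshold. At 6 h it differed in 42 of 156 pairs (26.9%), 19 higher and 23 lower, against 21.9% of all pairs. The 4684 pairs include those of the members, and among the 4277 other pairs the shares were 8.44% at 2 h and 22.7% at 6 h. The members were chosen by level, whereas the other pairs only had to pass the filter on low counts. What part of the difference in shares this makes was not tested. All 13 pairs called in opposite directions were among the 42. Opposite calls in the same libraries nearly fix a changed ratio in advance, so this is no separate support for the pairs. In 9 of the 13 the ratio lost its call in none of 11 refits. The refit limited to pairs with 0 shared exonic bases could not test 10 of the 13. These share exonic bases and were not in it. The separate calls of both genes held with any library left out in 0 of the 13 pairs, since leaving out at least 1 library lost 1 of the calls in each. In 26 of the 33 pairs called in both genes the members shared exonic bases with the partner, as in 126 of all 156 pairs.

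**Figure D3:**
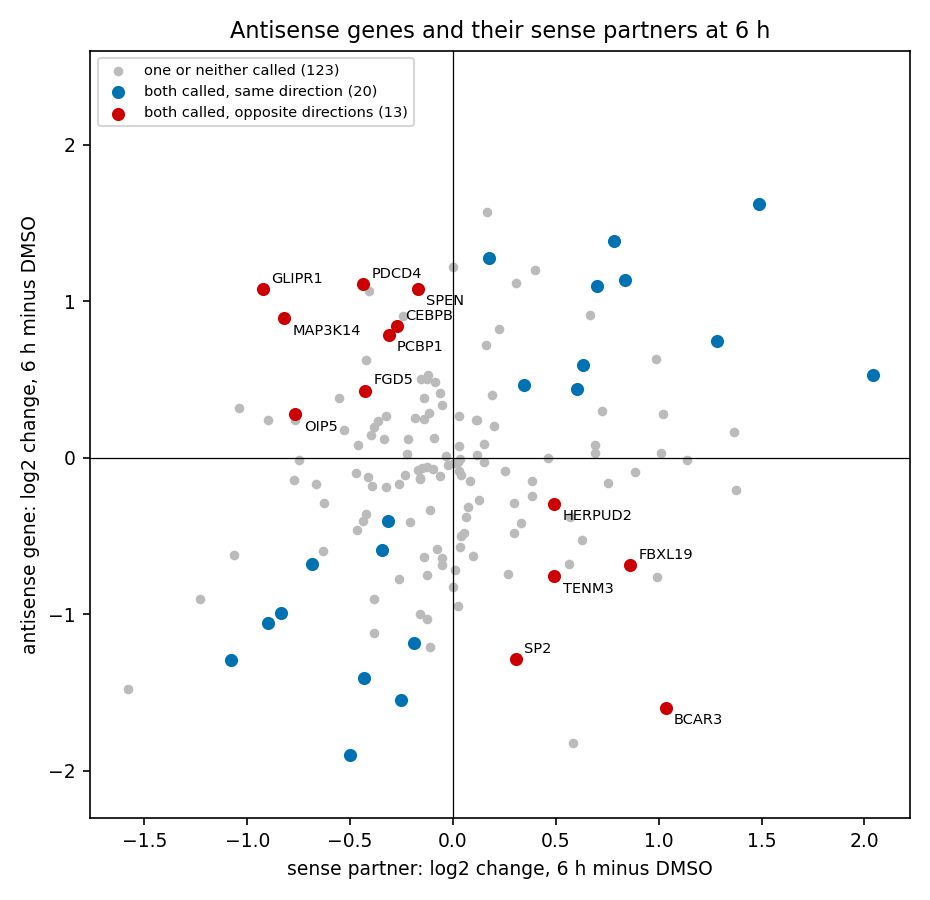
Log2 change of each antisense gene at 6 h (vertical axis) against that of its sense partner (horizontal axis), 156 pairs. The 13 red points are pairs called in opposite directions, labelled by the partner, the 20 blue points pairs called in the same direction and the grey points the other 123.

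Among pairs with the antisense gene lower and the partner higher, BCAR3-AS1 and BCAR3 lay farthest apart. BCAR3-AS1 had 3.60 and 4.29 CPM in DMSO, 2.51 and 2.43 at 2 h and 0.720 and 1.88 at 6 h (6 h change -1.60 ± 0.406, adjusted p = 0.00146). BCAR3, an adaptor protein of integrin and growth factor signalling, had 21.4 and 20.9 CPM in DMSO, 42.4 and 37.1 at 2 h and 44.8 and 41.7 at 6 h (1.03 ± 0.117, adjusted p = 7.10e-10). Every treated library was below DMSO for BCAR3-AS1 and above it for BCAR3, and all exonic bases of BCAR3-AS1 lie inside the span of another gene. The ratio of BCAR3-AS1 to BCAR3 changed by -2.69 ± 0.415 on the log2 scale (adjusted p = 2.85e-06), while the call of BCAR3-AS1 alone was lost without the first 6 h library (-1.07) and was -2.44 without the second.

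FBXL19-AS1 had 11.1 and 11.1 CPM in DMSO, 6.77 and 10.4 at 2 h and 5.76 and 8.03 at 6 h (6 h change -0.69 ± 0.212, adjusted p = 0.00865). FBXL19, an F-box protein that binds unmethylated CpG DNA, had 81.4 and 60.3 CPM in DMSO, 98.7 and 102 at 2 h and 131 and 126 at 6 h (0.86 ± 0.0911, adjusted p = 1.20e-10). The ratio of FBXL19-AS1 to FBXL19 changed by -1.57 ± 0.241 (adjusted p = 2.64e-06). TENM3-AS1 had 10.7 and 9.06 CPM in DMSO, 9.01 and 9.04 at 2 h and 5.40 and 6.30 at 6 h, and TENM3, a teneurin adhesion protein, 227 and 236, 292 and 294, and 321 and 332 CPM. The 6 h libraries of TENM3-AS1 stood below and those of TENM3 above all others, with changes of -0.75 ± 0.207 (adjusted p = 0.00320) and 0.49 ± 0.0614 (adjusted p = 7.41e-09). Without the first 6 h library the calls of FBXL19-AS1 (-0.47) and TENM3-AS1 (-0.65) were lost.

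HERPUD2-AS1, at 35.1 and 35.8 CPM in DMSO, 41.1 and 41.2 at 2 h and 27.4 and 30.5 at 6 h, was highest at 2 h and lowest at 6 h. The difference between 2 h and DMSO was not called. Its fall from 2 h to 6 h held in each of the 14 refits (-0.51 ± 0.113, adjusted p = 0.000514), while the fall from DMSO to 6 h (-0.29 ± 0.114, adjusted p = 0.0374) was lost in 10 of them, among them the refits without the first DMSO (-0.31), the second DMSO (-0.28), the first 6 h (-0.22) and the second 6 h library (-0.37) and those with library size alone (-0.26) and DESeq2 (-0.29). HERPUD2, an endoplasmic reticulum membrane protein, had 70.9 and 81.9 CPM in DMSO, 86.5 and 94.3 at 2 h and 107 and 108 at 6 h (0.49 ± 0.0844, adjusted p = 5.96e-06). The fifth pair of this kind, SP2-AS1 (-1.29) with the transcription factor gene SP2 (0.31), lost a call without the second DMSO (-0.97 for SP2-AS1, 0.27 for SP2), the first 6 h (0.33 for SP2) or the second 6 h library (-1.07 and 0.28).

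Among the 8 pairs with the antisense gene higher and the partner lower, FGD5-AS1 was the most abundant. FGD5, a guanine exchange factor of CDC42, had 24.5 and 22.7 CPM in DMSO, 23.1 and 21.8 at 2 h and 18.0 and 17.1 at 6 h (6 h change -0.43 ± 0.136, adjusted p = 0.0106), so both 6 h libraries were the lowest. FGD5-AS1 was the higher of the pair per kb, at 61.2 against 2.62 CPM. The ratio of FGD5-AS1 to FGD5 rose by 0.86 ± 0.160 on the log2 scale (adjusted p = 6.73e-05), and the call of FGD5 alone was lost without the first DMSO (-0.38) or the second 6 h library (-0.39).

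MAP3K14-AS1 had 3.04 and 3.07 CPM in DMSO, 3.28 and 2.05 at 2 h and 6.43 and 4.93 at 6 h (0.89 ± 0.305, adjusted p = 0.0180). MAP3K14, the kinase NIK of the noncanonical NF-kB pathway, had 54.9 and 56.1 CPM in DMSO, 33.1 and 34.9 at 2 h and 31.6 and 31.1 at 6 h (-0.82 ± 0.107, adjusted p = 2.09e-08). The partner was thus already low at 2 h, when MAP3K14-AS1 overlapped its DMSO level. The ratio of MAP3K14-AS1 to MAP3K14 changed by 1.68 ± 0.329 at 6 h (adjusted p = 0.000129). GLIPR1-AS1, which lies wholly inside another gene, had 1.27 and 3.02 CPM in DMSO, 2.46 and 1.49 at 2 h and 5.35 and 3.81 at 6 h (1.08 ± 0.374, adjusted p = 0.0204), and GLIPR1 22.2 and 26.3, 23.4 and 23.3, and 11.7 and 13.8 CPM (-0.93 ± 0.144, adjusted p = 1.06e-06). The 6 h libraries of GLIPR1-AS1 were the highest and those of GLIPR1 the lowest, and the ratio of GLIPR1-AS1 to GLIPR1 changed by 2.08 ± 0.393 (adjusted p = 8.11e-05). The calls of the antisense genes alone were lost without the first 6 h library (MAP3K14-AS1 0.69, GLIPR1-AS1 0.81) and without the first DMSO library (0.89 and 0.60), and for MAP3K14-AS1 also without the second DMSO library (0.90), where GLIPR1-AS1 was at 1.84. DESeq2 did not call GLIPR1-AS1 (1.09).

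SPEN-AS1 had 6.25 and 4.25 CPM in DMSO, 6.39 and 5.03 at 2 h and 10.1 and 12.0 at 6 h (1.08 ± 0.225, adjusted p = 0.000131), a rise that held in each of the 14 refits. SPEN, a transcriptional repressor that takes part in X inactivation, had 340 and 332 CPM in DMSO and 298 and 299 at 6 h (-0.17 ± 0.0606, adjusted p = 0.0233). That small fall was lost without any 2 h or 6 h library (-0.17 in each case) and with library size alone (-0.14). In the other 4 pairs the antisense gene was OIP5-AS1 (0.28), PCBP1-AS1 (0.79), CEBPB-AS1 (0.84) or PDCD4-AS1 (1.11). Their partners, a centromere protein (OIP5, -0.77), an RNA-binding protein (PCBP1, -0.31), a leucine zipper transcription factor (CEBPB, -0.27) and an inhibitor of translation (PDCD4, -0.44), were lower. Without the first 6 h library a call was lost in OIP5-AS1 (0.24), OIP5 (-0.53), PCBP1 (-0.21), CEBPB-AS1 (0.63), CEBPB (-0.21) and PDCD4-AS1 (0.83), and without the first DMSO library in PCBP1-AS1 (0.59), PCBP1 (-0.24), CEBPB-AS1 (0.65), CEBPB (-0.15) and PDCD4-AS1 (0.52). PCBP1-AS1 (0.70) and CEBPB (-0.33) also lost theirs without the second 6 h library, and CEBPB without either 2 h library (-0.27 in both), and PDCD4-AS1 was at 2.23 without the second DMSO library. DESeq2 did not call CEBPB-AS1 (0.85), CEBPB (-0.27) or PDCD4-AS1 (1.13), and CEBPB was not called with library size alone (-0.24) either.

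**Figure D4:**
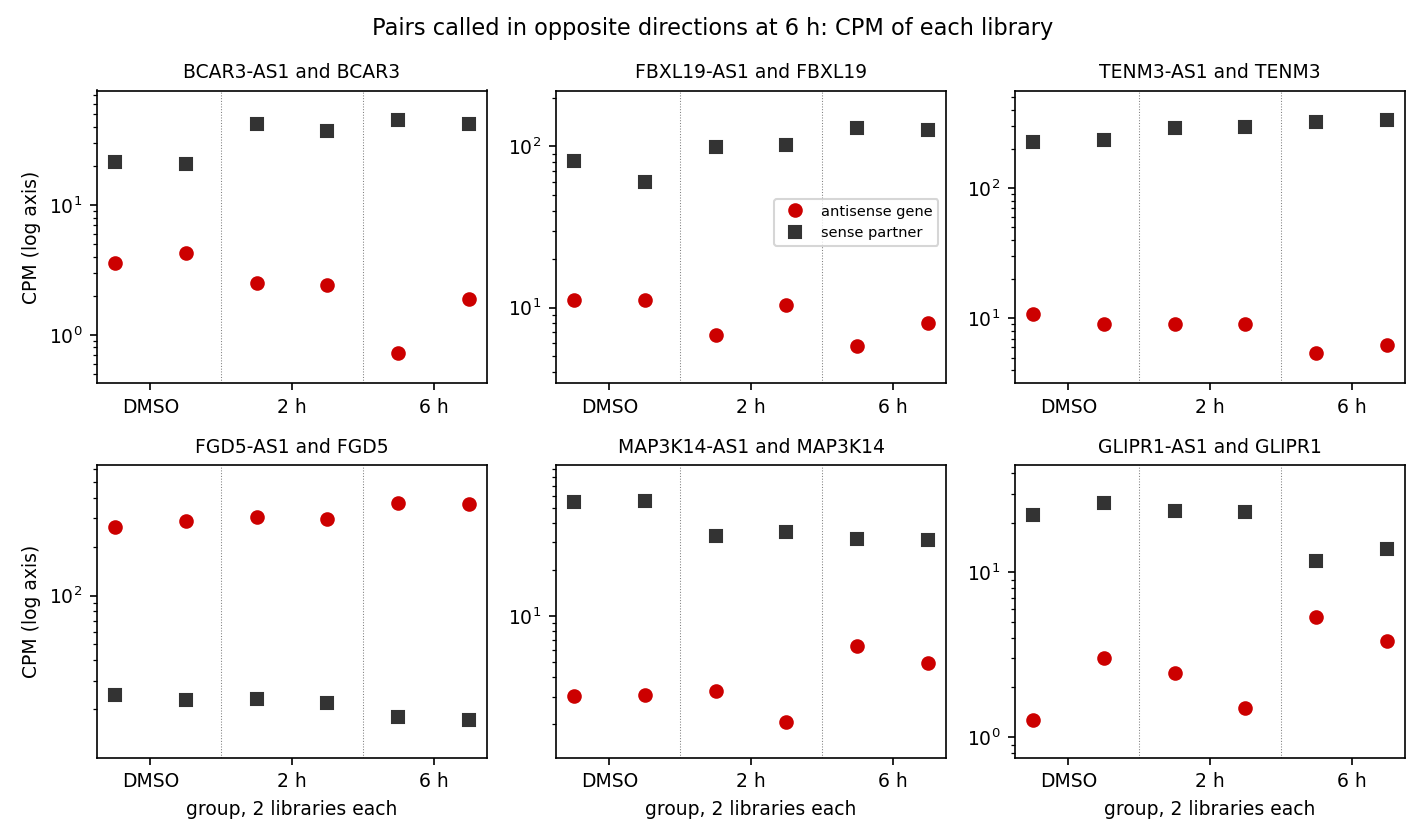
CPM of each library, on a log axis, for 6 of the 13 pairs called in opposite directions at 6 h (red circles, antisense gene, and dark squares, sense partner). In the upper row the antisense gene falls while the partner rises, in the lower row the reverse, as in FGD5-AS1 (263 and 287 CPM in DMSO, 373 and 368 at 6 h) and FGD5 (24.5 and 22.7, 18.0 and 17.1).

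In some of the other pairs with a changed ratio only the partner was called, as in GABPB1-AS1 with GABPB1. GABPB1-AS1 had 24.5 and 22.0 CPM in DMSO, 24.6 and 25.7 at 2 h and 25.9 and 30.1 at 6 h, with both 6 h libraries above both DMSO libraries, and was not called (6 h change 0.27 ± 0.128, adjusted p = 0.0940). GABPB1, a subunit of an ETS-family transcription factor complex, had 47.1 and 48.0 CPM in DMSO, 35.9 and 37.7 at 2 h and 30.0 and 26.2 at 6 h (-0.76 ± 0.112, adjusted p = 3.08e-07). The ratio of GABPB1-AS1 to GABPB1 changed by 1.03 ± 0.156 at 6 h (adjusted p = 2.05e-06).

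In 32 members the start lay within 500 bases of the partner's start, so that a short stretch of DNA holds both starts. Members that start within 2 kb of the partner (72) had 5 rises and 4 falls at 2 h and 12 and 11 at 6 h, and those that start farther away (93) had 3 and 15 at 2 h and 13 and 25 at 6 h. At 2 h these were 6.94% higher and 5.56% lower in the near class and 3.23% and 16.1% in the far class, beside 8.68% and 8.32% of all genes. At 6 h they were 16.7% and 15.3% in the near and 14.0% and 26.9% in the far class, beside 18.0% and 18.6%. The difference between both classes was not tested. Some members start within 500 bases of a partner and were called at 6 h together with it. Promoter windows (250 bases before to 50 after a start) are shown for 6 of these members, which need not be all. The windows are from RefSeq on GRCh38.p14, 5′ to 3′ on the member's strand. They show the DNA at the starts of pairs that moved in each combination: FBXL19-AS1 and HERPUD2-AS1 fell while the partner rose, PDCD4-AS1 rose while the partner fell, LIPT2-AS1 and UNC5C-AS1 rose with the partner and SH3RF3-AS1 fell with it. The table's starts of SH3RF3-AS1 and PDCD4-AS1 lie outside their RefSeq windows. Capitals mark any match, on either strand, to one of 6 motifs. The CCAAT box was searched with its own letters. The E-box was searched as CACGTG. For the CRE core the letters were TGACG. The AP-1 site was searched as TGACTCA. The ETS core stood for CCGGAA. The TATA box was searched as TATAAA.
FBXL19-AS1, chr16:30923220-30923519, minus strand: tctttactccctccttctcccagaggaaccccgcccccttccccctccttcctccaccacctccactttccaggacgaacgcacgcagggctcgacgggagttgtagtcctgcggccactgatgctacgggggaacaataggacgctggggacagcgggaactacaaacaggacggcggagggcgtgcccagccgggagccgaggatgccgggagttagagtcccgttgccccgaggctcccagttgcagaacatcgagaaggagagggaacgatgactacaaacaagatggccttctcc
HERPUD2-AS1, chr7:35694956-35695255, plus strand: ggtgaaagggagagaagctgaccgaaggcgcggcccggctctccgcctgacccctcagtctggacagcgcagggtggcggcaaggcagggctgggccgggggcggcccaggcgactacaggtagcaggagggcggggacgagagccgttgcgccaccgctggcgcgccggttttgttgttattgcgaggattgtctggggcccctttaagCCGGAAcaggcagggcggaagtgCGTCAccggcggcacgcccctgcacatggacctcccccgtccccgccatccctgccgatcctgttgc
LIPT2-AS1, chr11:74493130-74493429, plus strand: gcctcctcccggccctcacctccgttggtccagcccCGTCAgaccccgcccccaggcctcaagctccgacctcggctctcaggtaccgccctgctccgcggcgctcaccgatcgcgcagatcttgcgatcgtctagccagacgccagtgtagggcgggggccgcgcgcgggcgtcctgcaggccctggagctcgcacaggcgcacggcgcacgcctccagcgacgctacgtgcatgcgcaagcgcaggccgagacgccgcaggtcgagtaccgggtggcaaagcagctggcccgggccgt
PDCD4-AS1, chr10:110870855-110871154, minus strand: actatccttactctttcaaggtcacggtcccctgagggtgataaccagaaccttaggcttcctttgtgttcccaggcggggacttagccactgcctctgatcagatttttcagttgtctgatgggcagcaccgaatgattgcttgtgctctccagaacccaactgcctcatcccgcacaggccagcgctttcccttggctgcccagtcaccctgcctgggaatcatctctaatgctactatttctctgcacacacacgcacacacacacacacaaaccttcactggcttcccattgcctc
SH3RF3-AS1, chr2:109130070-109130369, minus strand: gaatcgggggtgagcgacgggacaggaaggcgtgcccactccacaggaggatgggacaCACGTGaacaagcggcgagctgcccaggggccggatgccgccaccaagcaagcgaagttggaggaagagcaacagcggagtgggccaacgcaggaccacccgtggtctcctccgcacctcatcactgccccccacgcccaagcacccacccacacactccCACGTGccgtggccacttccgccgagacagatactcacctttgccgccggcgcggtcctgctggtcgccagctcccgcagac
UNC5C-AS1, chr4:95548898-95549197, plus strand: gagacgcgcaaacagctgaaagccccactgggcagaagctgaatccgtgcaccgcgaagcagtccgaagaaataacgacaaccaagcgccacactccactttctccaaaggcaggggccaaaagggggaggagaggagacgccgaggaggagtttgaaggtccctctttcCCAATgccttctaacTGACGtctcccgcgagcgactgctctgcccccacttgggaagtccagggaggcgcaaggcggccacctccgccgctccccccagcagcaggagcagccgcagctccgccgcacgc

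In 3 of the 6 pairs the window shares bases with a window of the partner: 274 in UNC5C-AS1, 198 in FBXL19-AS1 and 170 in HERPUD2-AS1. Of these, UNC5C-AS1 moved with its partner and the other two opposite to it. UNC5C-AS1, at the gene of a netrin receptor, had 4.81 and 6.09 CPM in DMSO, 6.12 and 4.31 at 2 h and 10.5 and 7.77 at 6 h (6 h change 0.74 ± 0.235, adjusted p = 0.0104), and UNC5C 31.9 and 31.0, 45.6 and 37.4, and 76.2 and 76.9 CPM (1.28 ± 0.105, adjusted p = 6.70e-14). Both genes were highest in the 6 h libraries, and the call of UNC5C-AS1 was lost without the first DMSO (0.59) or the first 6 h library (0.51). The windows of FBXL19-AS1 and PDCD4-AS1 held none of the 6 motifs, with 20 and 6 CpG. The UNC5C-AS1 window held 1 CCAAT box, 1 CRE core and 22 CpG. The HERPUD2-AS1 window held 1 CRE core and 1 ETS core and 28 CpG, that of LIPT2-AS1 1 CRE core and 39 CpG, and that of SH3RF3-AS1 2 E-boxes and 25 CpG. SH3RF3-AS1 had 3.98 and 3.44 CPM in DMSO, 3.99 and 3.71 at 2 h and 1.44 and 2.29 at 6 h (6 h change -0.99 ± 0.347, adjusted p = 0.0215), and SH3RF3, a ubiquitin ligase gene, 29.4 and 24.8, 27.6 and 32.1, and 14.2 and 16.1 CPM (-0.84 ± 0.137, adjusted p = 2.55e-06). Both genes were low in the 6 h libraries only. The call of SH3RF3-AS1 was lost without the first DMSO (-0.88) or the first 6 h library (-0.69).

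RefSeq held 159 such windows for 129 of the 167 members, some of them overlapping windows of 1 gene. An ETS core was in 32.1% of them, against 17.2% of all 35116 windows in the reference, and a CRE core in 34.6% against 24.6%. A CCAAT box was in 28.9% against 34.6%, a TATA box in 5.66% against 11.5%, an E-box in 7.55% against 7.26% and an AP-1 site in 3.77% against 4.95%. The median number of CpG was 26 against 14. The reference windows were not limited to genes expressed in these cells, whereas the members were chosen by level. A match is only a string of letters and was not tested as a site.

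Members that share more exonic sequence were looked at apart, because their counts are the least certain. Of the 35 with 25% or more of their exonic length in common with another gene, 1 (SPEN-AS1) was higher and 11 were lower at 6 h, and 0 and 4 at 2 h. At 6 h that is 2.86% and 31.4%, beside 15.6% and 21.6% of all members and 18.0% and 18.6% of all genes, and at 2 h 0.0% and 11.4%, beside 8.68% and 8.32% of all genes. The 11 include AFAP1-AS1 and VPS9D1-AS1. Of the 19 that share no exonic base with any gene, 4 were higher and 4 lower at 6 h, and of the 7 with no exonic base inside the span of another gene 2 and 2. TIRAP-AS1, with the largest share, had 2.43 and 2.27 CPM in DMSO, 2.73 and 3.67 at 2 h and 3.34 and 2.85 at 6 h and was not called in any comparison. EPB41L4A-AS1, with 56.4% shared, had 20.0 and 24.1 CPM in DMSO, 20.3 and 21.0 at 2 h and 18.3 and 19.1 at 6 h and was not called either (6 h change -0.24 ± 0.139, adjusted p = 0.177).

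**Figure D5:**
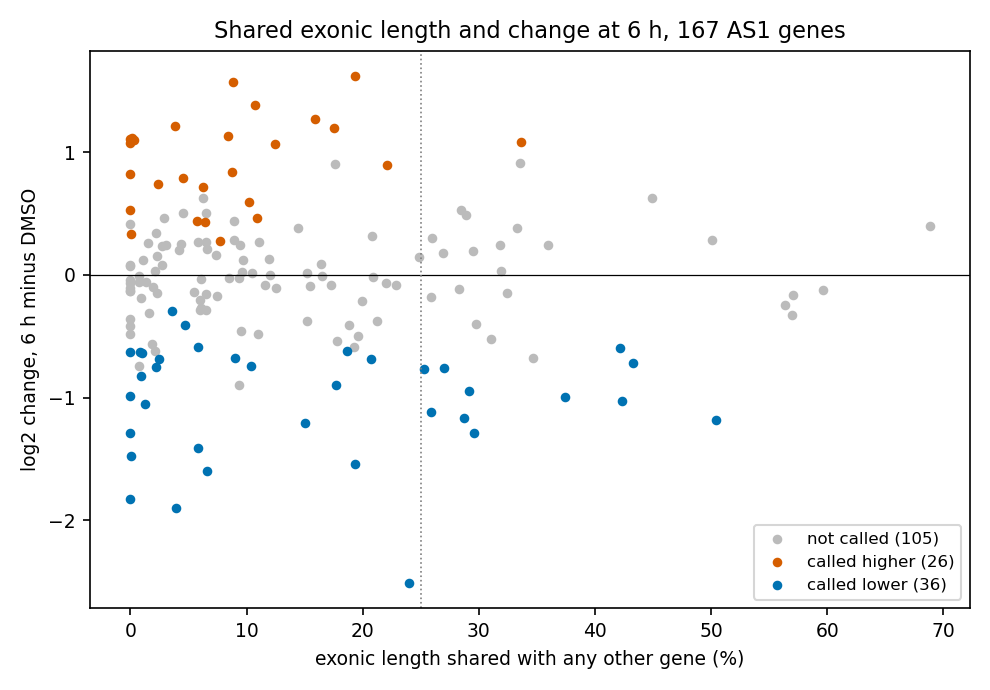
Log2 change at 6 h (vertical axis) against the percentage of exonic length that a member shares with any other gene (horizontal axis), with 26 members called higher, 36 lower and 105 not called. Right of the dotted line at 25% lie 35 members, 11 of them called lower and 1 higher.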

How the data were processed

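RNA from 6 libraries of JJN3 cells was sequenced. The deposited table holds raw counts of fragments by gene from featureCounts 2.0.0 with GENCODE 34, per the file headers: paired fragments, strand ignored, mapping quality of at least 20, and fragments over several genes or positions left out. Per the submitters' processing notes, Trimmomatic and STAR were used with hg38 (versions not given). For ANK2 a record split by line ends was joined again. Symbols came from the reference's name tables (60415 of 60728 identifiers matched), gene types from GENCODE 29.

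Counts were fitted with edgeR 4.0.16 (quasi-likelihood, group means over all 6 libraries, TMM factors, filterByExpr, 15548 genes). Calls required an adjusted p under 0.05 (Benjamini-Hochberg, over all genes). The spread was largely estimated over all genes (42.8 prior degrees of freedom against 3 per gene). Levels are CPM and the SE of a log2 change derives from the F statistic. Ratios were tested with limma 3.58.1 on differences of log2 CPM (prior count 2) over 4684 opposite-strand pairs that overlap or start within 5 kb. Both procedures were tested on simulated data.

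Partners were matched by symbol and overlaps computed from the exon coordinates in the table. Named members were, among called members whose groups do not overlap, the 8 largest rises and falls of each comparison with DMSO and 5 of each for 6 h with 2 h. The 6 most abundant, those opposite to the partner, the 6 smallest ratio p-values per time, the 6 with most exonic length shared with the partner and 3 on each side of the minimum were added. Some of the genes that this rule names are not reported here. Members and lists were chosen with earlier results of these data known.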

Additional observations from a re-analysis of the deposited data

Results flagged for a closer look

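In 10 named members the change from DMSO differed between 2 h and 6 h by 1 or more on the log2 scale. The test was that of 6 h against 2 h (edgeR, adjusted p under 0.05, every 6 h library beyond both 2 h libraries). Other named members, among them TRG-AS1 (0.64) and HERPUD2-AS1 (-0.51), passed the same test with smaller differences and are not listed here. The log2 difference of 6 h minus 2 h was 1.14 in SLC9A3-AS1, 1.04 in SCAMP1-AS1, -1.58 in FAM222A-AS1, -1.59 in IFNG-AS1 and -1.20 in VPS9D1-AS1, and these held with each library left out. It was 1.03 in CARD8-AS1, 1.11 in MAP3K14-AS1, 1.23 in GLIPR1-AS1, -1.04 in SH3RF3-AS1 and -1.19 in SP2-AS1, all under 7 CPM. In this second set the call was lost without the first 2 h library in CARD8-AS1 (0.88), SH3RF3-AS1 (-0.99) and SP2-AS1 (-0.70). Without the second 2 h library it was lost in MAP3K14-AS1 (0.79) and GLIPR1-AS1 (0.90). Without the first 6 h library it was lost in MAP3K14-AS1 (0.90), GLIPR1-AS1 (0.96), SH3RF3-AS1 (-0.75) and SP2-AS1 (-1.44), and without the second in CARD8-AS1 (0.80) and SP2-AS1 (-0.97). With all 6 libraries, SP2-AS1 also lost its call with library size alone (-1.12), DESeq2 (-1.20) and limma voom (-1.09).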

How the results depend on the processing

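Of 146 values of named members and partners, recomputed 2190 times, 0 reversed and 264 lost the call, 171 of them with a library left out, 47 at an adjusted p under 0.01 and 19 with DESeq2. The 8 higher and 20 lower members at 2 h became 5 and 8 at an adjusted p under 0.01, 1 and 2 among members with 0 shared exonic bases, and 4 to 8 and 9 to 22 with a library left out. There were 5 higher at a minimum of 4 CPM and 13 lower with DESeq2. The 26 and 36 at 6 h became 13 and 20 at 0.01, 14 and 21 at 4 CPM, 4 and 4 with 0 shared exonic bases, and 14 to 28 and 22 to 36 with a library left out, and DESeq2 gave 17 higher. The 19 and 10 between 2 h and 6 h became 12 and 6 at 0.01, 2 and 3 with 0 shared exonic bases, and 10 to 22 and 6 to 11 with a library left out. Members with no exonic base in another gene's span, an alternative chosen after seeing the data, gave 1 and 1, 2 and 2, and 1 and 1, since only 7 remain. The 21 ratios that differed at 2 h became 7 at 0.01, 5 of the pairs with 0 shared exonic bases and 10 to 21 with a library left out, and the 42 at 6 h became 7 of the pairs with 0 shared exonic bases and 28 to 46. These subsets and refits hold fewer members or libraries, and the cause of other shifts was not tested. Same-numbered libraries did not deviate together (correlations -0.005, -0.038 and -0.021). With a replicate block 8 and 23 members were called at 2 h, 27 and 37 at 6 h, 20 and 11 between the times, and 21 and 43 ratios. Where a group has 1 library left, it is assumed to vary like the others. At under 4 CPM a member rests on few fragments.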

Other observations

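Other classes of noncoding genes are described by the shares called, beside 8.68% higher and 8.32% lower of all genes at 2 h and 18.0% and 18.6% at 6 h. Their levels are not set against those of the AS1 members, which were chosen by level. All genes tested had a median of 18.0 CPM, and a change in a gene with few fragments is harder to call. Low shares in the weaker lists therefore do not show a smaller response. Of 230 tested genes named DT (divergent transcripts), with a median of 1.38 CPM, 8 were higher (3.48%) and 15 lower (6.52%) at 2 h, and 24 (10.4%) and 11 (4.78%) at 6 h. The 278 tested AS1 genes under 2 CPM, with a median of 0.807 CPM, had 1 rise (0.36%) and 3 falls (1.08%) at 2 h and 5 and 5 (1.8% each) at 6 h. Of 20 tested genes named AS2 to AS9, 0 were higher and 3 lower (15.0%) at 2 h, and 0 and 2 (10.0%) at 6 h. Among the partners of the AS1 members, 24 of 156 were higher (15.4%) and 17 lower (10.9%) at 2 h, and 34 (21.8%) and 38 (24.4%) at 6 h. The membership depends on the annotation release: 118 of the 167 members carried an AS1 name in GENCODE 29 too, and of 14 genes at 2 CPM or more with an AS1 name only in that release, 11 are now named DT.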
